A study of Drosophila melanogaster with 23 samples.

Results

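Sen is a peptide transgene intended to disturb the binding of FoxO to p53 and so to push senescent cells into apoptosis. Its effect on midgut RNA was compared here between a driver active in intestinal stem cells (ISCs) and their progeny, the enteroblasts, and a driver active throughout the animal. The value described is a difference of differences on the log2 scale, namely Sen minus WT in the ISC-restricted expression model, less Sen minus WT in the ubiquitous expression model, and is called the driver difference. A positive driver difference means that Sen libraries stood higher against WT with the ISC driver than with the ubiquitous driver. The rule took 11 of the 23 libraries of the series and tested the 9196 of 17714 gene IDs with a mean of at least 10 reads in the libraries of each driver.

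The study expressed Sen, the reprogramming factors OKSM (Oct4, Klf4, Sox2 and c-Myc), both together, or a fluorescent protein constantly in flies and sequenced RNA from dissected midguts. Ubiquitous Sen (2 libraries) was armGal4; tubGal80ts > UAS-Sen, and ISC Sen (3 libraries) was esgGal4; tubGal80ts > UAS-Sen. Each WT group (3 libraries) carried UAS-TdTomato, with armGal4 or esgGal4 in the crosses of the study, although the series text names no Gal4 beside the WT entries. All 4 groups carried tubGal80ts, which holds Gal4 inactive at low temperature, and the crosses list UAS-GFP beside both drivers. The line list of the study gives UAS-GFP and UAS-dCas9.VPR in the esg stock and neither in the arm stock, so the drivers may differ in these transgenes too. The age and sex of the flies at dissection are not given in the sources used here. The Sen peptide is described once as designed on foxo and once as residues of the Fork Head protein. The esg driver is active in enteroblasts as well as ISCs, and armGal4 in all tissues, so neither limits a change in RNA to the cells that make Sen.

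In the adult fly midgut, ISCs divide to renew themselves and to give enteroblasts, which mature into absorptive enterocytes, while other daughters become hormone-secreting enteroendocrine cells. Stress or damage raises division through secreted signals: the cytokine upd3 acts through the JAK/STAT pathway, EGF-like ligands through the EGF receptor, and Pvf ligands through the receptor Pvr. Notch signaling, started by the ligand Delta on ISCs, sets the fate of their daughters.

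Expected counts summed to between 14626936 and 18974759 reads in the ISC libraries and between 33438269 and 42031945 in the ubiquitous libraries, so driver and depth cannot be told apart, and neither can driver and the set of flies processed together. Enterocyte markers summed to between 15550 and 26480 CPM (reads of a gene relative to the TMM-scaled size of the library) in the libraries titled intestinal stem cell, and the 13 ISC and enteroblast markers to between 136.0 and 273.8, so that by their markers these were whole midguts and not isolated stem cells. Reads from genes lying opposite each other were split differently: 38.39% of genes overlapping only an opposite-strand gene had a fractional count in the ubiquitous libraries, against 1.41% in the ISC libraries, and 26.3% of all genes overlapping the other strand passed the test for the driver difference, against 28.9% of other genes. The submitters corrected a label swap between ISC Sen 3 and an ISC OKSM-Sen library, and without ISC Sen 3 the count of genes with a driver difference was 2002. Nothing in the labels says that replicates came from separate cohorts, so the p-values reflect only how these samples spread, which may be technical. In whole midguts, fewer cells of a type and less RNA per cell cannot be told apart.

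The effect of Sen was higher in the ISC model for 28 of 50 genes of mitosis, 20 of 40 of DNA replication and 10 of 13 markers of stem cells and enteroblasts. It was lower there for 69 of 82 cytosolic ribosomal protein genes, 80 of which fell with Sen in the ISC model and 0 of which passed the test in the ubiquitous model. At a false discovery rate (FDR) of 10% in edgeR's quasi-likelihood test, 2576 genes (28.0% of those tested) differed between the drivers in the effect of Sen, 1396 (15.2%) with a higher and 1180 (12.8%) with a lower effect in the ISC model. The median driver difference over all tested genes was −0.02. Within each driver, 3229 genes (35.1%) passed for Sen against WT in the ISC model, 1652 up (18.0%) and 1577 down (17.1%), and 484 (5.26%) in the ubiquitous model, 202 up (2.20%) and 282 down (3.07%). Counts of list members are to be read against these shares over all genes tested, those of the driver difference or those of each driver. The ubiquitous count, which rests on 2 Sen libraries, ranged from 204 to 767 when single libraries were left out.

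Of the 1396 genes with a higher effect in the ISC model, 948 were called up in the ISC model and not called in the ubiquitous model. A further 136 were up in the ISC model and down in the ubiquitous model, 80 were called down only in the ubiquitous model and 219 were called in neither. Of the 1180 with a lower effect, 866 were called down in the ISC model and not called in the ubiquitous model, 76 were called up only in the ubiquitous model and 30 were down in the ISC and up in the ubiquitous model. In all, 276 genes were called in both models, which is 8.55% of the ISC calls and 57.02% of the ubiquitous calls, and 166 of them moved in opposite directions. The 166 became 37 without ubiquitous Sen 2, of which 18 were up in the ISC model and down in the ubiquitous model, 90 and 55 without ubiquitous WT 1 and WT 2, and 318 without ubiquitous WT 3. Across the 9196 genes, which are not independent replicates, the 2 Sen effects had a Pearson correlation of −0.20 and a Spearman correlation of −0.20.

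**Figure D1:**
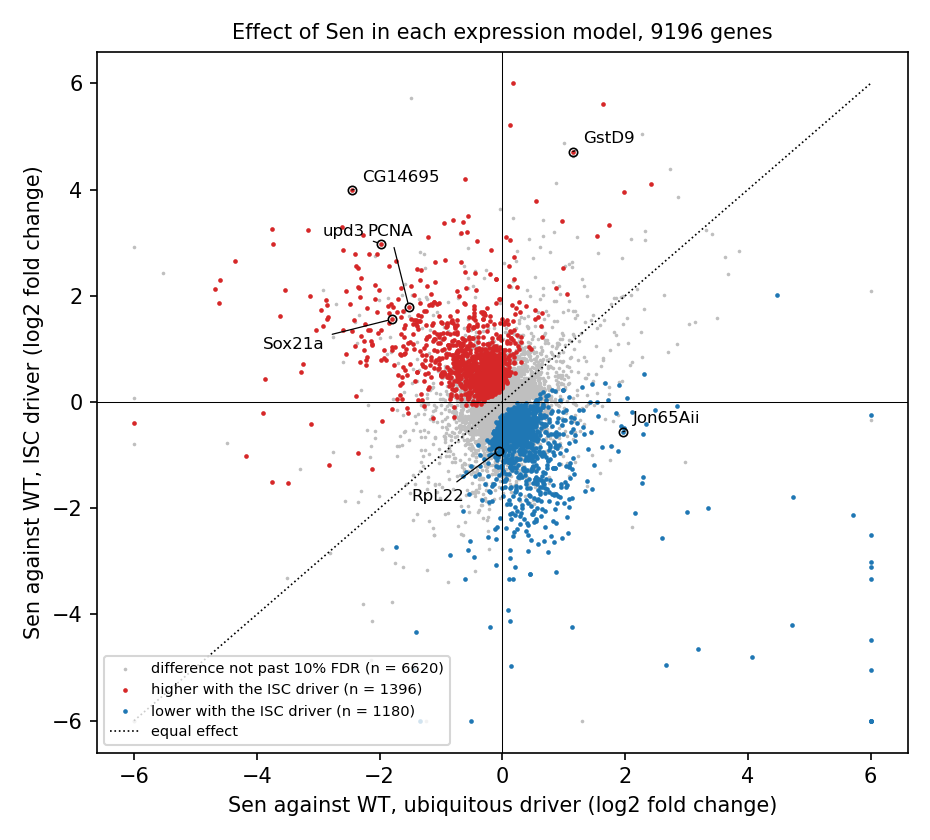
Sen minus WT (log2) with the ubiquitous driver on the x axis and with the ISC driver on the y axis, 1 point per tested gene, with genes that passed the test for the driver difference coloured by direction. The 1396 genes with a higher and the 1180 with a lower effect in the ISC model lie on opposite sides of the diagonal, and 25 genes beyond 6 log2 units are drawn at the edge.

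Signals that act on stem cells carried some of the widest separations. The cytokine upd3 (chromosome X, 18277233 to 18284596 in BDGP6.54, as for all positions given; a ligand of the JAK/STAT pathway) stood at 31.1, 20.9 and 24.4 CPM in the ISC Sen libraries and at 3.25, 3.08 and 3.37 CPM in ISC WT. With the ubiquitous driver it stood at 1.95 and 3.45 CPM in Sen and at 9.73, 14.5 and 7.52 CPM in WT. The Sen and WT libraries of upd3 did not overlap within either driver, and Sen was the higher group in the ISC model and the lower group in the ubiquitous model. Its driver difference was 4.95 ± 0.72 (SE; edgeR, adjusted p = 0.00055), from 2.98 ± 0.48 in the ISC model and −1.97 ± 0.53 in the ubiquitous model. The JAK/STAT receptor gene dome had levels of 120, 131 and 122 CPM in ISC Sen, 82.4, 88.0 and 99.0 in ISC WT, 62.5 and 69.1 in ubiquitous Sen, and 104, 97.1 and 76.5 in ubiquitous WT. Its groups separated in the same way as those of upd3, by a driver difference of 0.96 ± 0.18 (edgeR, adjusted p = 0.0015). Of the 13 tested JAK/STAT and Turandot genes, 5 had a higher and 0 a lower effect in the ISC model, with a median driver difference of 0.59. Among these 5 were Socs36E, a target and inhibitor of the pathway (2.22 ± 0.67; edgeR, adjusted p = 0.028), and the phosphatase gene Ptp61F (0.50 ± 0.14). Without ubiquitous Sen 2, the count was 2 and Socs36E lost its call.

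Among 22 growth factors and other secreted signals, 9 had a higher and 3 a lower effect in the ISC model, with a median of 0.68. The 3 are near the 12.8% of all genes tested. Pvf1, a ligand of the receptor Pvr (chromosome X, 18832682 to 18842901), stood at 104, 91.8 and 123 CPM in ISC Sen against 45, 27.5 and 44.5 in ISC WT. In the ubiquitous model it stood at 19.4 and 23 CPM in Sen against 62.2, 79.2 and 49.5 in WT. Neither pair of groups overlapped, and the driver difference was 3.03 ± 0.41 (edgeR, adjusted p = 0.00034). The EGF-like ligand gene Krn stood at 36.9, 38.2 and 37.5 CPM in ISC Sen and at 22.6, 18.2 and 19.3 in ISC WT, while ubiquitous Sen (15.9 and 21.5) overlapped ubiquitous WT (24.9, 23.4 and 19.9). Its driver difference was 1.19 ± 0.18 (edgeR, adjusted p = 0.00055), and Krn is also counted among the ISC and enteroblast markers. The gene of the EGF ligand-processing protease rho (3.78 ± 0.76) and the EGF receptor inhibitor gene aos (1.54 ± 0.33), itself a target of the receptor, were called in the same direction. In the other direction were sog, an extracellular inhibitor of BMP signaling (−1.01 ± 0.25), wg, the Wnt ligand (−2.03 ± 0.56), and daw, an Activin-type ligand (−3.01 ± 1.2).

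Of 14 genes of the JNK stress pathway and its targets, 7 had a higher and 0 a lower effect in the ISC model (median 0.48), and the 7 became 4 without ubiquitous Sen 2 and 3 without genes overlapping the other strand. The transcription factor gene Ets21C stood at 52.2, 56.6 and 55.1 CPM in ISC Sen, 13.4, 30.0 and 12.9 in ISC WT, 5.93 and 11.3 in ubiquitous Sen, and 24.8, 18.9 and 24.6 in ubiquitous WT. It was thus highest in all ISC Sen libraries and lowest in both ubiquitous Sen libraries among the 11, by a driver difference of 2.94 ± 0.72 (edgeR, adjusted p = 0.0096). The matrix metalloprotease genes Mmp2 (3.06 ± 0.68) and Mmp1 (0.99 ± 0.23) and the JNK phosphatase gene puc (1.07 ± 0.28) were also called higher. Ets21C, Mmp1 and Mmp2 overlap genes on the other strand, so they were not among the genes tested for the count of 3.

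Markers of ISCs and enteroblasts followed the same pattern. Of 13 tested, 10 had a higher and 0 a lower effect in the ISC model (median 1.75), 11 rose with Sen in the ISC model and 3 fell in the ubiquitous model. The 3 became 1 without ubiquitous Sen 2, 2 without ubiquitous WT 2 and 5 without ubiquitous Sen 3. The summed level of the list ranged from 270.7 to 273.8 CPM in ISC Sen, 136.0 to 171.2 in ISC WT, 134.3 to 163.0 in ubiquitous Sen and 167.8 to 240.8 in ubiquitous WT. Sox21a, a transcription factor gene of stem cells and enteroblasts (chromosome 3L, 14103481 to 14108118), stood at 41.2, 38.8 and 38.7 CPM in ISC Sen and 12.6, 9.18 and 18.6 in ISC WT. In the ubiquitous model it stood at 5.6 and 6.93 CPM in Sen and 18.8, 32.0 and 14.9 in WT. Its driver difference of 3.36 ± 0.46 (edgeR, adjusted p = 0.00042) joined a rise of 1.56 ± 0.30 in the ISC model to a fall, −1.80 ± 0.35, in the ubiquitous model. The Notch ligand gene Delta (chromosome 3R, 19302731 to 19326217) stood at 11.3, 8.42 and 9.62 CPM in ISC Sen, 4.61, 3.79 and 5.05 in ISC WT, 4.13 and 2.43 in ubiquitous Sen, and 11.5, 11.5 and 4.91 in ubiquitous WT. Its Sen and WT libraries did not overlap within either driver, and its driver difference was 2.63 ± 0.39 (edgeR, adjusted p = 0.00055). Sox100B, a second Sox factor gene of these cells, had a driver difference of 2.62 ± 0.37 (edgeR, adjusted p = 0.00044). The markers mira, zfh2 and klu, which are the other 3 of the 13 and are named because they complete the list, were not called, at 0.09, 0.50 and 0.45.

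**Figure D2:**
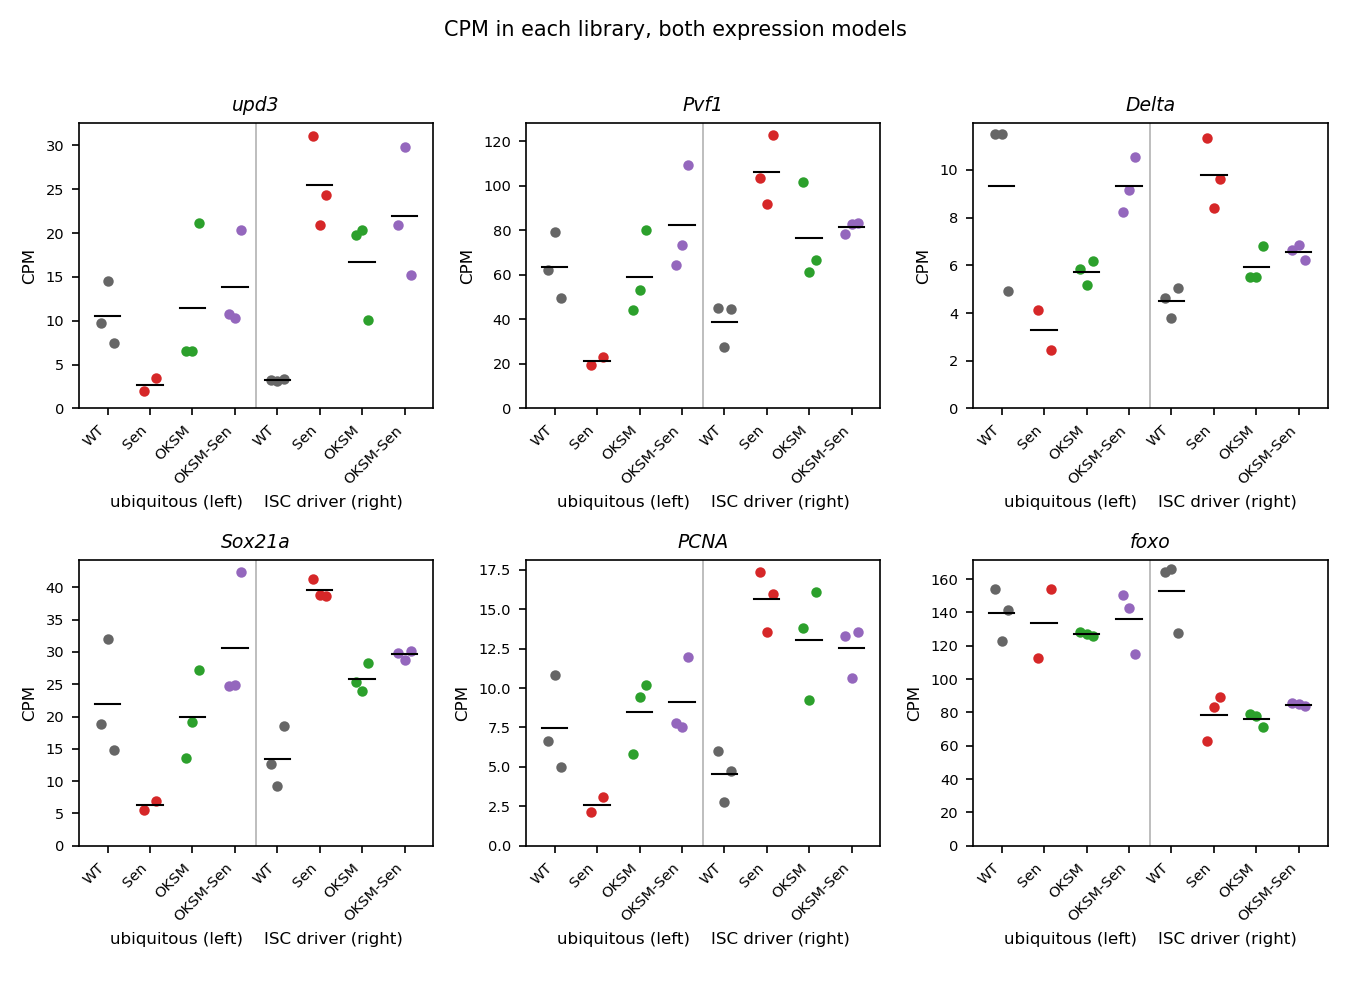
Level (CPM, linear axis) of upd3, Pvf1, Delta, Sox21a, PCNA and foxo in every library of the 8 groups of the series, with 1 point per library and a bar at each group mean. For upd3 the ISC Sen libraries sit between 20.9 and 31.1 CPM and the ISC WT libraries between 3.08 and 3.37, while the ubiquitous Sen libraries sit below all ubiquitous WT libraries.

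Notch signaling genes were called higher in 8 and lower in 1 of 12 tested (median 0.99). Besides Delta, these included the Notch target genes E(spl)malpha-BFM (1.98), E(spl)m3-HLH (2.35) and E(spl)mbeta-HLH (1.75), while Ser, which encodes the other Notch ligand, had a driver difference of −1.88 ± 0.63 (edgeR, adjusted p = 0.042). Delta and these target genes are also among the ISC and enteroblast markers, so the calls of the 2 lists are not separate results. Markers of the mature lineages had medians near 0. Of 17 enteroendocrine genes 3 were called higher and 0 lower (median −0.01), led by ITP, a peptide hormone gene (1.66 ± 0.29), with CCHa1 and AstA, and 1 was called when leaving out any 1 of ubiquitous Sen 2, ubiquitous WT 1, ubiquitous WT 2 or ISC Sen 1. Of 14 enterocyte genes 2 were called higher and 0 lower (median −0.01), namely mex1, a gene of the absorptive cells, and nub, a transcription factor gene. For both lists the count called higher is near the 15.2% of all genes tested. The enterocyte sum was higher with Sen in both models without overlap, at 22380 to 26480 CPM in ISC Sen, 15550 to 19580 in ISC WT, 47630 to 73570 in ubiquitous Sen and 32280 to 39590 in ubiquitous WT. A sum is weighted to its highest genes, and this list holds Amy-p, Amy-d and Mal-A1. The separate amylase and maltase list summed to 54810 to 76410 CPM in ubiquitous Sen. By gene, 3 of the 14 were called up and 2 down in the ISC model, and 0 in the ubiquitous model (median 0.07). The sum therefore does not show a rise of enterocyte markers as a set.

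The cell division lists showed the pattern over many genes. Of 50 mitosis and cytokinesis genes, 28 had a higher and 1 a lower effect in the ISC model, with a median driver difference of 1.36 and medians of 0.48 in the ISC model and −0.82 in the ubiquitous model. Of them 17 rose and 1 fell with Sen in the ISC model, and 0 rose and 15 fell in the ubiquitous model. Of 40 DNA replication genes, 20 were called higher and 0 lower (median 0.93), with 21 up in the ISC model and 10 down in the ubiquitous model. Without ubiquitous Sen 2 the genes down in the ubiquitous model became 4 of the mitosis and 2 of the replication list, and without ubiquitous WT 2 they became 7 and 3. The 15 mitosis genes also became 7 without ubiquitous Sen 3, and the 17 that rose in the ISC model became 10 without ISC WT 2. In 14 of the 50 mitosis genes and 12 of the 40 replication genes, all ISC Sen libraries lay above ISC WT and both ubiquitous Sen libraries below ubiquitous WT, an arrangement found in 5.67% of all genes tested.

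PCNA, the sliding clamp of the replication fork, stood at 17.3, 13.6 and 16.0 CPM in ISC Sen, 6.03, 2.78 and 4.76 in ISC WT, 2.15 and 3.06 in ubiquitous Sen, and 6.62, 10.8 and 5 in ubiquitous WT. The groups were separate within each driver and the driver difference was 3.31 ± 0.49 (edgeR, adjusted p = 0.00055). Similar differences were found for RnrL, the large subunit of ribonucleotide reductase (3.02 ± 0.46), PolE1, the catalytic subunit of DNA polymerase epsilon (2.73), and dpa, an MCM helicase subunit (2.16 ± 0.31). Among mitosis genes, the kinase gene aurB stood at 2.97, 2.38 and 1.74 CPM in ISC Sen, 0.886, 0.415 and 0.870 in ISC WT, 0.449 and 0.360 in ubiquitous Sen, and 1.54, 2.61 and 0.883 in ubiquitous WT. Although low, aurB separated within both drivers, with a driver difference of 3.74 ± 0.60 (edgeR, adjusted p = 0.00071). The centrosome gene cnn (2.34 ± 0.35), the kinesin gene Klp61F (2.58 ± 0.40) and scra, the anillin gene (2.51 ± 0.35), were called in the same direction. Zw10, a kinetochore gene, was the 1 member called lower, at −0.43. With a stricter filter of 50 reads, which removes low genes, 12 mitosis genes were called higher, and 17 when genes overlapping the other strand were left out, which left 13 replication genes. Both settings test fewer members than the full lists.

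**Figure D3:**
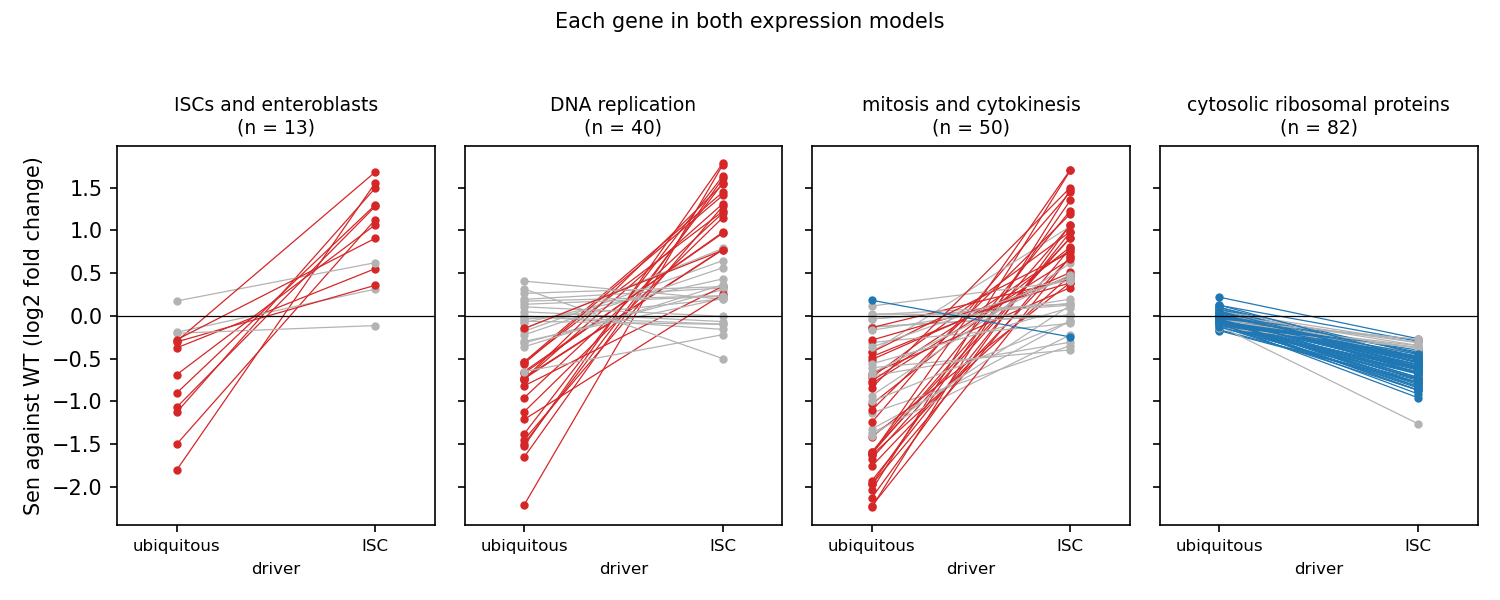
Sen minus WT (log2) with each driver for the members of 4 lists, with a line joining the 2 values of each gene and colour marking genes called for the driver difference. Lines of the ISC and enteroblast (13 genes), replication (40) and mitosis (50) lists mostly rise from the ubiquitous to the ISC driver, and those of the cytosolic ribosomal proteins (82) fall by a median of 0.55.

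Genes of visceral muscle, which surrounds the gut and is not part of the epithelium, moved with these lists. Of 20 tested, 6 were called higher and 0 lower (median 0.95), including the tropomyosin gene Tm1 (0.74 ± 0.17) and the Z-disc gene Zasp52 (1.52 ± 0.45). Their sum ranged from 3269 to 3641 CPM in ISC Sen, 2313 to 2447 in ISC WT, 1987 to 2602 in ubiquitous Sen and 1914 to 5314 in ubiquitous WT. The count of 6 was 2 without ubiquitous Sen 3 or ubiquitous WT 1, 3 without ISC WT 2 and 15 without ubiquitous WT 3. The part of muscle RNA in the other lists was not tested.

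Ribosomal protein genes showed the most uniform change in the other direction. Of 82 cytosolic ribosomal protein genes, 69 had a lower and 0 a higher effect in the ISC model, with a median of −0.55. In the ISC model 80 fell, with a median of −0.57, and in 79 of the 82 all ISC Sen libraries lay below all ISC WT libraries, against 22.7% of all genes tested. In the ubiquitous model edgeR called 0 of them, with 0 also at an unadjusted p under 0.05, and the median was −0.04. RpL22 (chromosome X, 762560 to 765130), of the large subunit, stood at 623, 728 and 591 CPM in ISC Sen and 1318, 1377 and 960 in ISC WT, against 1315 and 1264 in ubiquitous Sen and 1276, 1282 and 1463 in ubiquitous WT. The ISC Sen libraries were the low ones, the ubiquitous groups differed little, and the driver difference was −0.86 ± 0.20 (edgeR, adjusted p = 0.0078). The small subunit gene sta (−0.87 ± 0.20) and RpL6 (−0.77 ± 0.19) and RpL18 (−0.81), of the large subunit, were alike. The count of 69 depended on single libraries, falling to 34 without ubiquitous Sen 2 and to 43 without ISC WT 2.

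Of 23 ribosome biogenesis genes 11 were called lower and 0 higher (median −0.65), among them nclb, Ns3 and Nmd3, a factor for export of the large subunit (−0.65 ± 0.19), and Polr1A, the largest subunit of RNA polymerase I (−0.86). This count was 0 without ubiquitous Sen 2, 19 without ubiquitous Sen 3, 6 without ubiquitous WT 1 or ISC Sen 3, and 5 without ISC WT 1. Of 59 respiratory chain genes 1 was called higher and 0 lower (median −0.09), and of 72 mitochondrial ribosomal protein genes, counted after the values were seen, 2 were called higher and 0 lower.

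**Figure D4:**
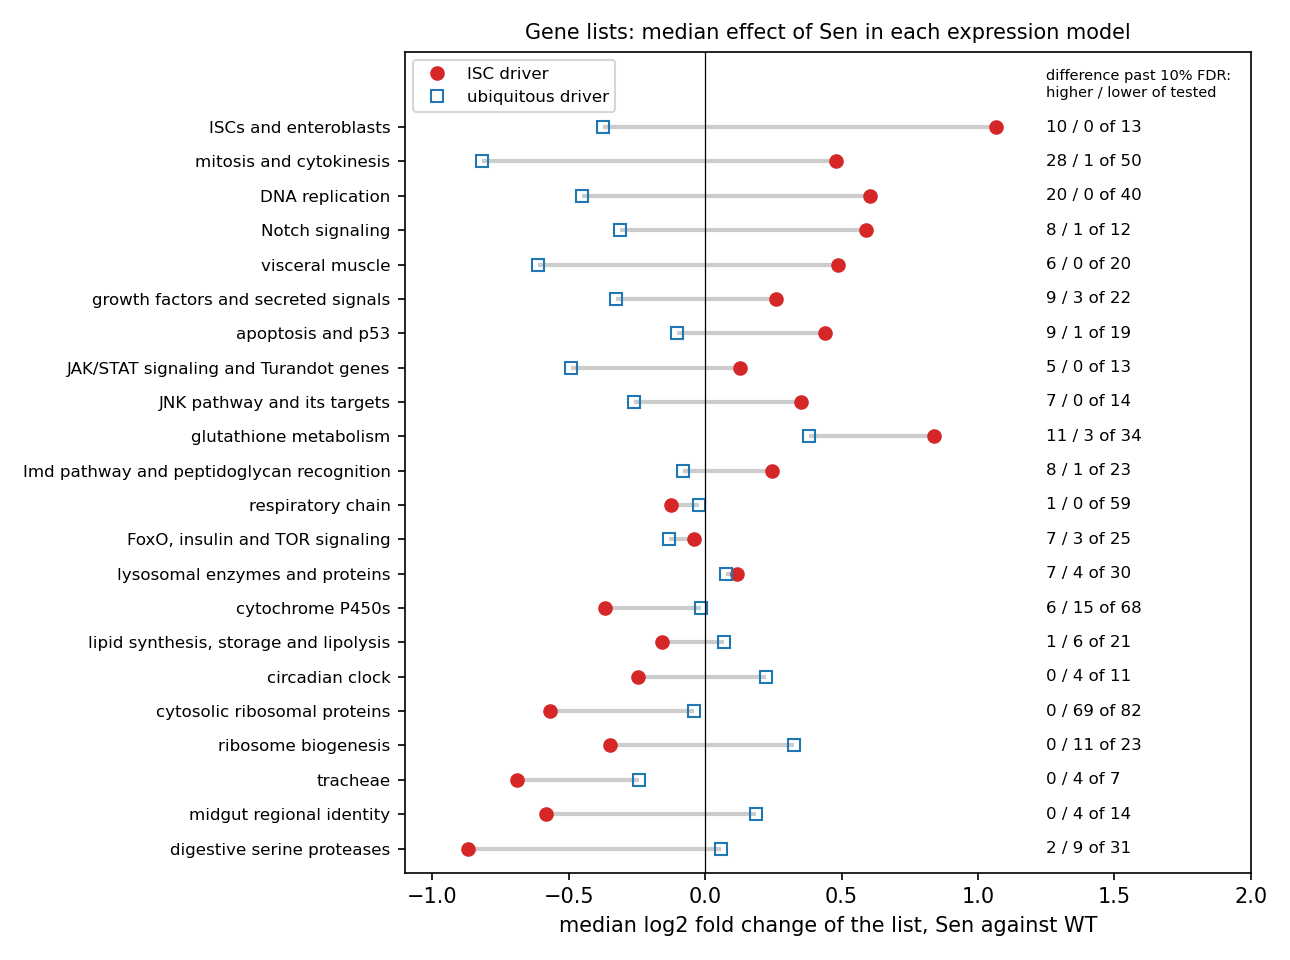
Median Sen minus WT (log2) of 22 of the 39 gene lists in the ISC (filled circles) and in the ubiquitous model (open squares), with the counts called for the driver difference at the right. The mitosis list lies at 0.48 and −0.82, the ISC and enteroblast list at 1.07 and −0.37, and the cytosolic ribosomal proteins at −0.57 and −0.04.

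The genes of FoxO, p53, Fork Head and the 2 drivers were followed as a list of their own. foxo (chromosome 3R, 14056945 to 14087978), the transcription factor of low insulin signaling, stood at 62.7, 83.4 and 89.2 CPM in ISC Sen and 164, 166 and 127 in ISC WT. In the ubiquitous model it stood at 113 and 154 CPM in Sen and 154, 123 and 141 in WT. ISC Sen was the low group and the ubiquitous groups overlapped, with a driver difference of −0.90 ± 0.21 (edgeR, adjusted p = 0.0074). p53 (chromosome 3R, 23049657 to 23054082), which overlaps a gene on the other strand, stood at 27.1, 23 and 27.0 CPM in ISC Sen, 11.6, 11.1 and 12.9 in ISC WT, 13.7 and 11.1 in ubiquitous Sen, and 9.64, 14.2 and 11.4 in ubiquitous WT. Among the Sen and WT groups ISC Sen was the high one, by a driver difference of 1.03 ± 0.28 (edgeR, adjusted p = 0.016). The level of p53 was also above ISC WT without Sen, at 18.3, 26.2 and 20.9 CPM in ISC OKSM. In ISC OKSM-Sen it was 25.4, 32.3 and 22.6 CPM, so ISC WT was the group apart in that model. esg, whose promoter region drives the ISC model, was called higher (0.93 ± 0.29; edgeR, adjusted p = 0.030) but not without ubiquitous Sen 2 (edgeR, adjusted p = 0.139). arm (0.24 ± 0.11) and fkh (0.61 ± 0.32) were not called. Reads of a foxo- or fkh-derived transgene were not separated from those of the endogenous gene here.

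Of 19 apoptosis and p53 genes, 9 had a higher and 1 a lower effect in the ISC model (median 0.66), 8 rose and 2 fell with Sen in the ISC model, and in the ubiquitous model edgeR called 0, although 5 had an unadjusted p under 0.05, all with lower values. The 9 became 5 when genes overlapping the other strand were left out, a setting that also tests fewer members. The effector caspase gene Drice stood at 53.8, 43 and 50 CPM in ISC Sen, 28.1, 23.2 and 38.6 in ISC WT, 28.7 and 33.1 in ubiquitous Sen, and 52.5, 51.4 and 42.2 in ubiquitous WT. ISC Sen lay above ISC WT and ubiquitous Sen below ubiquitous WT, and the driver difference was 1.36 ± 0.28 (edgeR, adjusted p = 0.0033). Dark, the adaptor of the initiator caspase (0.98 ± 0.20), and the caspase genes Decay (0.79) and Strica (0.81) were called in the same direction, and Dcp-1, another effector caspase gene, in the opposite one (−0.48 ± 0.19).

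Of 25 FoxO, insulin and TOR genes, 7 were called higher and 3 lower (median −0.05), against 15.2% and 12.8% of all genes tested. The 3 are thus near the share over all genes, and they became 5 without ISC WT 3. InR, the insulin receptor gene, stood at 59.9, 54.3 and 66.8 CPM in ISC Sen, 39.7, 36.8 and 35.2 in ISC WT, 21.3 and 32.6 in ubiquitous Sen, and 60.5, 74.5 and 47.4 in ubiquitous WT. It was up in the ISC model and down in the ubiquitous model, with a driver difference of 1.87 ± 0.32 (edgeR, adjusted p = 0.0012). The PI3-kinase adaptor gene Pi3K21B (1.73 ± 0.41), the kinase gene Akt (0.72 ± 0.18) and ImpL2, which encodes a secreted inhibitor of insulin signaling (3.29 ± 0.80), were called higher. Besides foxo, the kinase genes Sik3 (−0.53 ± 0.16) and S6k (−0.63 ± 0.22) were called lower.

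Among lists of detoxification and digestion, 11 of 34 glutathione genes were called higher, against 15.2% of all genes tested, and 3 lower (median 0.42), 19 rose with Sen in the ISC model and 5 rose in the ubiquitous model. The transferase gene GstD9 stood at 149, 172 and 222 CPM in ISC Sen and 6.38, 6.93 and 7.31 in ISC WT, with 20.1 and 26.0 in ubiquitous Sen and 9.76, 13.5 and 7.98 in ubiquitous WT. Sen was the higher group with both drivers and by more with the ISC driver, by a driver difference of 3.57 ± 0.58 (edgeR, adjusted p = 0.00084), and the ubiquitous change of 1.15 was not called. GstD1 (1.19 ± 0.30), GstE11 (1.06 ± 0.25) and GstT1 (0.72) were also higher, and Gclm, a subunit of the enzyme that starts glutathione synthesis, was lower (−1.26 ± 0.34). Without ubiquitous Sen 2 the 11 became 4 and the 3 became 1, and the 11 became 6 without ISC Sen 3. Of 68 cytochrome P450 genes, 6 were called higher, led by Cyp305a1 (2.87 ± 0.49), and 15 lower (median −0.29), led by Cyp4d2 (−1.49 ± 0.19), which was 33.1 and 47.6 CPM in ubiquitous Sen and 16.5, 16.1 and 23.1 in ubiquitous WT. The 15 became 9 without ubiquitous Sen 3 or ubiquitous WT 2, and the 6 became 3 without ubiquitous Sen 2.

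Of 31 digestive serine protease genes, 2 were called higher and 9 lower (median −0.95), and the 9 became 4 without ubiquitous Sen 3. The trypsin gene alphaTry stood at 8389, 10064 and 7233 CPM in ISC Sen and 21882, 19214 and 23309 in ISC WT, against 17634 and 23058 in ubiquitous Sen and 17704, 16948 and 17531 in ubiquitous WT. Among these groups ISC Sen was the low one, by a driver difference of −1.55 ± 0.41 (edgeR, adjusted p = 0.014). The ISC OKSM (3965 to 11456 CPM) and ISC OKSM-Sen (5067 to 9268 CPM) libraries also lay below all ISC WT libraries. The protease gene Jon65Aii differed through the other driver, at 359 and 657 CPM in ubiquitous Sen against 135, 104 and 151 in ubiquitous WT, with 179, 189 and 134 in ISC Sen and 240, 250 and 250 in ISC WT. Its ubiquitous Sen libraries were the 2 highest of the 11, and the driver difference was −2.52 ± 0.59 (edgeR, adjusted p = 0.0072). For Jon65Aii the ubiquitous OKSM (205 to 725 CPM) and OKSM-Sen (201 to 343 CPM) libraries also lay above all ubiquitous WT libraries. Trypsin, Jon and Gst genes have close paralogs, so the split of reads between members is uncertain.

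Of 15 amylase and maltase genes and 15 heat-inducible chaperone genes 0 were called by edgeR in either direction, and 0 had an unadjusted p under 0.05. Of 30 lysosomal genes 7 were called higher, led by the lipase gene Lip4 (2.12 ± 0.46), and 4 lower, against 15.2% and 12.8% of all genes tested. The 4 are near the share over all genes. Of 6 lysozyme genes 1 was called in each direction. Of 21 lipid genes 1 was called higher and 6 lower (median −0.40), including Dgat2, a triglyceride synthesis gene, which stood at 1.76, 3.38 and 2.20 CPM in ISC Sen and 12.8, 24.7 and 18.3 in ISC WT (driver difference −2.46 ± 0.64). The 7 lysosomal genes became 4 without ubiquitous Sen 2, and the 6 lipid genes became 2 or 3 when leaving out any 1 of ubiquitous WT 2, ISC Sen 1, ISC Sen 3 or ISC WT 2. Of 18 unfolded protein response genes 1 was called higher and 2 lower, and of 12 metallothionein and copper genes 0 and 3, the latter 5 without ISC OKSM-Sen 2.

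Of 23 Imd immune pathway genes 8 were called higher and 1 lower (median 0.22), led by key, the gene of an IKK subunit (1.28 ± 0.21), and Charon (1.68 ± 0.34), both of which overlap genes on the other strand. The 8 became 4 without ISC WT 1, 5 when leaving out any 1 of ubiquitous Sen 2, ISC Sen 2 or ISC WT 2, and 2 without genes overlapping the other strand. Leaving out those genes also removed members from the test, key and Charon among them. Of 10 antimicrobial peptide genes 2 were called higher and 1 lower. Of 11 clock genes 0 were called higher and 4 lower, led by Clk, a transcription factor gene of the clock (−1.16 ± 0.26), with tim (−0.79 ± 0.26) and cry (−0.65). Of 14 genes of regional identity along the midgut 0 were called higher and 4 lower (7 with the replicate block), the homeobox genes mirr (−1.60 ± 0.35), dve (−1.12 ± 0.25), caup (−2.40) and ara (−2.38). Of 23 Polycomb and trithorax genes 2 were called in each direction.

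Some of the most extreme fitted differences came from genes whose levels varied strongly between libraries of a group. Uro, urate oxidase of the Malpighian tubules that open into the gut, stood at 77.3, 228 and 57.4 CPM in ISC Sen, 7.98, 11.3 and 26.8 in ISC WT, 0.958 and 0.390 in ubiquitous Sen, and 11.5, 0.123 and 15.4 in ubiquitous WT. Ubiquitous WT 2 was lower than both ubiquitous Sen libraries, and the driver difference of 6.71 (edgeR, adjusted p = 0.042) lost its call without either ubiquitous Sen library. Of 16 tubule genes 4 were called higher and 3 lower, and their sum ranged from 1163 to 1888 CPM in ISC Sen, 1058 to 1217 in ISC WT, 979.4 to 1621 in ubiquitous Sen and 756.6 to 1344 in ubiquitous WT. The count of 4 ranged from 0, without ubiquitous Sen 2, to 7, without ubiquitous WT 2, and the 3 became 1 without ubiquitous Sen 2. CG14695, also among the 12 most positive differences, stood at 16.0, 6.31 and 17.0 CPM in ISC Sen and 0.414, 0.118 and 1.91 in ISC WT, and its driver difference of 6.44 ± 1.17 (edgeR, adjusted p = 0.0015) was called under every alternative run. The part of tubule RNA in these genes was not tested.

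At the negative end, CG42704 stood at 76.6 and 152 CPM in ubiquitous Sen and 0 in all ubiquitous WT libraries, which is at least 3740-fold higher against 3 counts over the group. The ubiquitous OKSM libraries held 0 and the ubiquitous OKSM-Sen libraries at most 1.22 CPM. CG42704 thus passed the filter on reads only through the libraries in which it was high, so its fold and its call are no independent result. In the ISC model it stood at 37.6, 0.118 and 0.232 CPM in ISC WT and 0 in all ISC Sen libraries, so that 1 ISC WT library held nearly all of its ISC reads. Send1, a protease gene of the spermatheca, likewise stood at 26.2 and 0.330 CPM in ubiquitous Sen and 17.6, 0 and 0 in ISC WT, so that ubiquitous Sen 2 and ISC WT 1 were the high libraries. Without ISC WT 1, Send1, CG31681, CG9897 and CG42521 lost their calls, and CG1304 did so without ubiquitous Sen 3. With both ISC WT 1 and ubiquitous Sen 2 left out, chosen after these values were seen, 1305 genes were called for the driver difference and 14 ribosomal protein genes were lower. Other markers from outside the epithelium were called for the driver difference in 0 higher and 1 lower of 9 fat body genes, 0 and 2 of 9 ovary genes, 0 and 1 of 2 spermatheca genes, 0 and 0 of 3 testis genes, 0 and 1 of 11 hemocyte genes, 1 and 1 of 11 neuron and glia genes, and 0 and 4 of 7 tracheal genes, with 1 lower without ubiquitous Sen 2. The tracheal sum was 22.38 to 26.13 CPM in ISC Sen, 42.77 to 43.35 in ISC WT, 35.77 to 41.93 in ubiquitous Sen and 25.44 to 42.45 in ubiquitous WT.

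**Figure D5:**
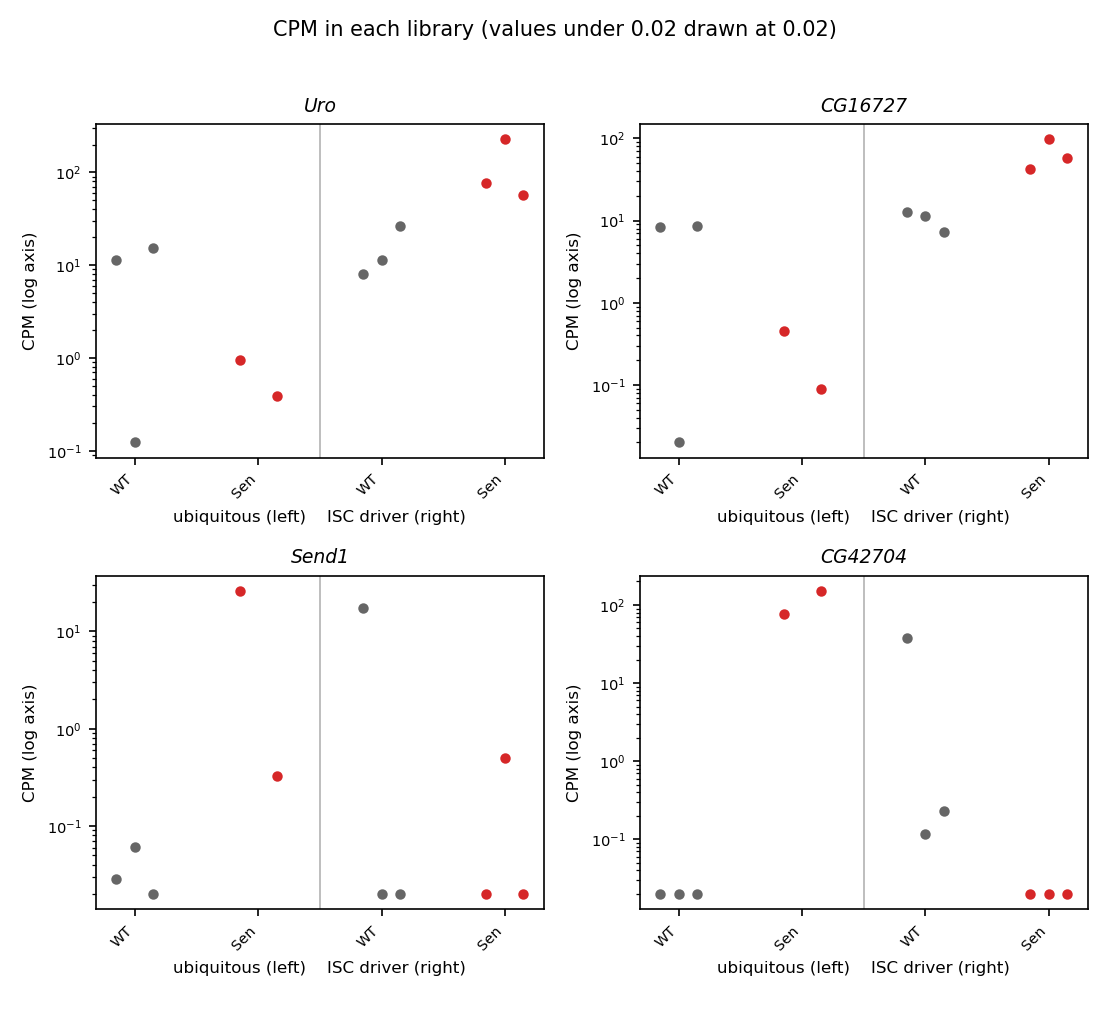
Level (CPM, log axis) of Uro, CG16727, Send1 and CG42704 in each library of the 4 Sen and WT groups, with values under 0.02 drawn at 0.02. For Send1, ubiquitous Sen 2 (26.2 CPM) and ISC WT 1 (17.6 CPM) stand apart from the other libraries of their groups.

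The same question was put to the libraries that the rule did not use, by comparing OKSM-Sen with OKSM in each driver, a comparison that shares no control with Sen against WT. In flies with OKSM, the division, stem cell and ribosomal protein genes showed no called difference between drivers in the effect of adding Sen. Only 2 of 9196 genes (0.0217%) were called, both higher, with 429 at an unadjusted p under 0.05 in edgeR and 37 called by DESeq2. These 2, named after their values were seen, were CG31683 (7.36 ± 0.57) and futsch, a microtubule-associated protein gene of neurons (5.57 ± 0.54), and each differed through a lower level in ubiquitous OKSM-Sen (−8.14 and −4.97). Of the 2576 genes with a driver difference in flies without OKSM, 1205 (46.8%) had the same sign in flies with OKSM. The list medians with OKSM were −0.02 for mitosis, −0.17 for replication, −0.36 for ISC and enteroblast markers and −0.12 for cytosolic ribosomal proteins.

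A test of the change itself, the driver difference without OKSM minus that with OKSM, called 1200 genes (13.0%), 700 higher (7.61%) and 500 lower (5.44%). Called higher were 21 of 50 mitosis genes, 18 of 40 replication genes and 9 of 13 ISC and enteroblast markers, with 0 lower in each, while 4 of 82 ribosomal protein genes were called lower. The test contains the driver difference itself, and 1115 of the 1200 genes were also called for that difference, 1114 with the same sign. The genes that follow were named by that difference, so a large change in them is no independent result. For upd3 the driver difference with OKSM was 0.12 ± 0.61, and the change between backgrounds was 4.82 (edgeR, adjusted p = 0.0070). For Pvf1 it was −0.39 ± 0.37, with a change of 3.42 (edgeR, adjusted p = 0.0030), and for Sox21a −0.43 ± 0.41, with a change of 3.79 (edgeR, adjusted p = 0.0037). For RpL22 it was −0.22 ± 0.19, and the change of −0.63 was not called (edgeR, adjusted p = 0.18).

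The levels behind these values show which groups stood apart. upd3 was at 19.8, 20.4 and 10.1 CPM in ISC OKSM and at 29.8, 15.3 and 21.0 in ISC OKSM-Sen, so every ISC library with a Sen or OKSM transgene lay above the ISC WT libraries, whose highest was 3.37. GstD9 was at 194, 146 and 130 CPM in ISC OKSM and at 200, 233 and 218 in ISC OKSM-Sen, again with only ISC WT low, at 7.31 or less. RpL22 was at 723, 630 and 529 CPM in ISC OKSM and at 612, 654 and 678 in ISC OKSM-Sen, all below ISC WT, whose lowest was 960. foxo was at 78.8, 78.1 and 71.0 CPM in ISC OKSM, below the ISC WT libraries, whose lowest was 127. The stem cell and division genes included others of this kind: Sox21a lay between 24.0 and 30.2 CPM in the ISC OKSM and OKSM-Sen libraries (ISC WT at most 18.6), Pvf1 between 61.2 and 102 (ISC WT at most 45) and PCNA between 9.21 and 16.1 (ISC WT at most 6.03). ISC WT lay below all 9 other ISC libraries in 18 of 40 replication genes, 12 of 50 mitosis genes and 6 of 13 ISC and enteroblast markers, against 11.2% of all genes tested, and above them in 75 of 82 ribosomal protein genes, against 9.88%. For such genes, a change brought by Sen and any other trait by which the ISC WT flies differ from the transgenic lines, such as genetic background, cannot be told apart by Sen against WT alone. In the ubiquitous model Sox21a was at 13.5, 19.2 and 27.1 CPM in OKSM and at 24.8, 24.9 and 42.3 in OKSM-Sen, above both ubiquitous Sen libraries, so that ubiquitous Sen stood low in 1 model and ISC WT in the other. Ubiquitous Sen lay below all 9 other ubiquitous libraries in 29 of 50 mitosis genes, 11 of 40 replication genes and 4 of 13 ISC and enteroblast markers, against 6.21% of all genes tested. It lay above all of them in 5 of 34 glutathione genes, against 3.99% of all genes tested.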

How the data were processed

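RNA from dissected midguts was sequenced in 23 libraries. The files the authors deposited hold, per library, RSEM 1.3.1 expected counts of genes from reads placed by STAR 2.7.1a. The processing notes of the submitters name dm6 and the methods an Ensembl annotation of the same assembly series; gene names, coordinates and overlaps were taken here from BDGP6.54. Counts were rounded, and 390 rRNA, snoRNA and snRNA genes were removed. A symbol was found for 17587 of 17714 IDs, and 16 symbols came from tables of the study. Genes with a mean of at least 10 reads in each driver (9637 and 9374 genes) left 9196. All 23 libraries (8 groups) were fitted together in edgeR 4.0.16 under R 4.3.3, with TMM scaling and the robust quasi-likelihood test, 15 residual degrees of freedom and Benjamini-Hochberg adjustment at an FDR of 10%, with a biological coefficient of variation of 0.25. DESeq2 1.42.0 was an alternative. On simulated counts edgeR recovered 46 of 100 genes changed by 1 log2 unit and 83 of 100 changed by 2, and called 12 unchanged genes. DESeq2 recovered 54 and 88 and called 32 unchanged genes. These counts gave each gene the same relative level in all libraries, apart from changes placed only in ISC Sen, with the spread estimated by the fit. Recovery of changes in ubiquitous Sen, with 2 libraries, was not tested. Totals per library, given in the report, limit the precision of low genes.

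The members and the 39 gene lists (15 names unmatched) were chosen with earlier results of these data known. Named genes were the 12 most positive and 12 most negative called driver differences, up to 4 called members per list and direction by smallest p, and the transgene and driver list. The OKSM comparison, the counts of groups lying apart, the mitochondrial ribosomal protein count and 2 alternatives were added after the values were seen. No sequence is printed here.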

Additional observations from a re-analysis of the deposited data

Results flagged for a closer look

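The effect of Sen was tested for a difference between the drivers, and 2576 genes passed edgeR's quasi-likelihood test at an FDR of 10%. The further test, of whether that difference itself differed between flies without and with OKSM, passed in 1200 genes. Of these, 1115 were also called for the driver difference, which that test contains. Of the genes called within both models, 166 moved in opposite directions, 136 of them up in the ISC model and 30 down, and the 166 became 37 without ubiquitous Sen 2. Groups held at most 3 libraries, so single libraries were not tested as outliers.

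The 26 named genes that were called with opposite signs in the 2 models comprised 23 with a higher and 3 with a lower effect in the ISC model. Each had been named because its driver difference was called. That call and the split of 23 and 3 therefore depend on how genes were named. Of the signals and receptors, upd3 differed by 4.95, rho by 3.78, Pvf1 by 3.03, InR by 1.87, ITP by 1.66, aos by 1.54 and dome by 0.96. Of the stem cell markers, Sox21a differed by 3.36, Delta by 2.63 and Sox100B by 2.62. Of the division and replication genes, aurB differed by 3.74, PCNA by 3.31, RnrL by 3.02, PolE1 by 2.73, Klp61F by 2.58, scra by 2.51, cnn by 2.34 and dpa by 2.16. The Imd pathway genes Charon and key differed by 1.68 and 1.28, the lipase gene Lip4 by 2.12, the P450 gene Cyp305a1 by 2.87 and witty by 5.92. In the other direction were Cyp4d2 (−1.49), Obp56d (−8.92) and CG42705 (−19.32). The fitted value of CG42705 depends on the prior count because ubiquitous WT was at 0, and it is no bound.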

How the results depend on the processing

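No driver difference called in both fits reversed sign under any alternative run. Genes past the FDR in 2 fits that share most libraries could hardly reverse, and calls that were lost are not covered, so this is no test of stability. The count of 2576 was 2819 with DESeq2, 1975 with only the 11 libraries, 2492 with the ubiquitous libraries thinned to the ISC depth, and between 1626 (without ubiquitous Sen 2, which kept 57.6% of the calls) and 2679 with single libraries left out. Without genes overlapping the other strand it was 1746 of the 5953 genes left to test (29.33%), a share close to the 28.01% of the main fit. Without both ISC WT 1 and ubiquitous Sen 2 it was 1305 of 9182 (14.21%). These 2 alternatives were chosen after seeing the data. The ISC count of 3229 ranged from 2237 to 3377 with single libraries left out. The ubiquitous count of 484 was 859 with DESeq2, 207 with only the 11 libraries, 211 with each driver fitted apart, 199 without both libraries, and 204 (without ubiquitous Sen 2) to 767 (without ubiquitous WT 3) with single libraries left out, with 283 and 226 without ubiquitous WT 1 and WT 2. The share of higher genes among the ubiquitous calls was 41.7%, 50.7% with only the 11 libraries, 52.6% with each driver fitted apart and 69.1% without ubiquitous Sen 2. In flies with OKSM the count of 2 was 37 with DESeq2 and 2 to 4 with single libraries left out, and the change between backgrounds (1200) ranged from 855 to 1555. The 166 genes called in opposite directions were 289 with DESeq2, 54 with only the 11 libraries and 42 with each driver fitted apart. The cause of these shifts was not tested. Replicate numbers did not pair the samples (correlations of same-numbered libraries from −0.38 to 0.49), and with the replicate block 2445 genes were called, 3034 in the ISC model and 435 in the ubiquitous model.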

Other observations

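In 110 genes, Sen and WT differed in the same direction with both drivers. That count was 171 with DESeq2, 71 with only the 11 libraries and 70 with each driver fitted apart. A change brought by Sen and any other trait by which the WT flies differ from the Sen lines cannot be told apart here. Of the 276 genes called in both models, 65 were up and 45 were down in both. Named after their values were seen, these included the glutathione transferase gene GstE6, at 210, 273 and 339 CPM in ISC Sen against 116, 113 and 136 in ISC WT, and at 346 and 420 in ubiquitous Sen against 184, 137 and 217 in ubiquitous WT. Its driver difference was 0.08 ± 0.27 and was not called. Jon25Biii, a digestive protease gene, rose by 1.27 in the ISC model and 1.15 in the ubiquitous model. Cyp4d1, a P450 gene, stood at 27.3, 20.9 and 17.6 CPM in ISC Sen, 125, 159 and 154 in ISC WT, 42.1 and 70 in ubiquitous Sen, and 198, 178 and 180 in ubiquitous WT. It was lower with Sen in both models, and its driver difference was −1.01 ± 0.30 (edgeR, adjusted p = 0.025).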
